A study of Nicotiana plumbaginifolia and Nicotiana benthamiana and Nicotiana rustica with 81 samples.

Results

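The genes of ethylene synthesis and response were taken from the deposited table as every reference transcript whose description contains "ethylene" or "1-aminocyclopropane-1-carboxylate" (ACC, the ethylene precursor). The rule found 207 of 38230 transcripts. In 9 of them the letters stand only inside "methylene", in folate, furanone, sterol and butenolide enzymes, and these were set aside. The 198 that remained were 7 ACC synthases, 14 ACC oxidases, 14 transcripts described as ACC oxidase homologs, 2 ACC deaminases, 12 receptors, 3 EIN2-like, 6 EIN3-like, 10 other regulators, 28 AP2-like factors and 102 factors of the ERF type. Transcripts described as EIN4-like or as EIL mRNAs carry neither phrase and are not among them.

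RNA was sequenced from hand-dissected floral nectaries, the glands that secrete nectar, of N. benthamiana, N. rustica, N. glauca, N. plumbaginifolia, N. bonariensis and N. clevelandii. Each species was sampled at stage 6 (immature), stage 9 (before secretion), stage 12 (open flower at anthesis) and a post secretory stage, which the protocol calls post-fertilization. The remaining 3 groups are N. plumbaginifolia leaf, ovary and sepal. All plants came from a tobacco germplasm collection, were grown in pots under long days, and no group carries a treatment or a transgene. The labels list 81 libraries in 27 groups of 3, while the protocol counts 75, with only 3 for the tissues, and names stems where the labels have sepal. Whether the 3 libraries of a group came from separate plants is not stated, so their spread may be technical.

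Ethylene is a gaseous hormone made from S-adenosylmethionine by ACC synthase, usually the controlled step, and ACC oxidase. Its receptors hold the kinase CTR1 active in the absence of the hormone. Binding switches this off, EIN2 then carries the signal onward, and the factors EIN3 and EIL, otherwise removed by the F-box proteins EBF1 and EBF2, turn on target genes that include factors of the ERF family. The family is large, and many of its members answer wounding, cold, drought or other hormones rather than ethylene. In flowers, ethylene is best known for its part in petal senescence and the changes that follow pollination.

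The table holds the authors' mean and SD of normalized read counts for each group, not the values of single libraries, and library totals are not used here, so the depth is unknown. Sums of the group means ran from 7824385 to 15248393. The highest belonged to N. plumbaginifolia at stage 9. Every one of the 38230 N. clevelandii entries repeats its N. bonariensis counterpart, so these columns were used a single time and are called the joint profile. With it there are 5 profiles and 20 nectary means. The median SD was 4.55% to 24.7% of the mean in nectary groups, with N. glauca stage 12 and the post secretory groups of N. rustica and the joint profile above 15%, and it was 32.3% in leaf. Lists of 5 values below follow the order N. benthamiana, N. rustica, N. glauca, N. plumbaginifolia and joint profile.

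The reference is N. tabacum, an allotetraploid whose gene copies are near-identical, and this shapes what can be read from single transcripts. Of the 198 transcripts, 120, 125, 118, 119 and 155 reached a mean of 10 at some nectary stage in the 5 profiles, and only 46 did so in every profile. Between 40 and 77 were listed at 0 at all 4 stages of a profile. ERS1-type receptors show the pattern: stage 12 nectaries of N. rustica had 2971 ± 227 (authors' mean and SD) for XM_016659385.1 and 63 ± 1 for XM_016617150.1, while in N. plumbaginifolia the same transcripts had 75 ± 22 and 1659 ± 150. Results are therefore given both for single transcripts and for sums over all transcripts with the same Arabidopsis match, called loci here. Levels of different genes are not compared, since no transcript lengths were at hand.

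The first comparison asks which ethylene genes change across nectary development in a way the profiles share. The fit used limma on log2 values of the group means (plus 1) and had a term for profile. Of the 198 transcripts, 195 reached a mean of 10 over the 20 nectary means and were tested. Summed over gene copies, the receptors ERS1, ETR1 and ETR2, the F-box genes EBF1 and EBF2, the kinase CTR1, ETO1, 1 ACC oxidase, 1 ACC oxidase homolog and 4 ERF-type factors rose in open flowers at stage 12 against stage 6, and an ERF017-type factor fell. For single transcripts, 2 of 195 rose at stage 12 against stage 6 and 0 fell, at an adjusted p under 0.05, where 0.838% of all 36627 transcripts were called, 0.478% higher and 0.36% lower. Both are ERF-type factors. The median change was 0.30 on the log2 scale, against 0.08 over all transcripts, and at an unadjusted p under 0.05 35 were higher and 5 lower, or 20.5% of the ethylene transcripts against 16.8% of all transcripts at that threshold.

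Summing the copies gave more calls. Of 63 ethylene loci tested, 10 rose at stage 12 against stage 6 and 1 fell, where 7.0% of all 17096 loci were called, 3.72% higher and 3.28% lower, with a median change of 0.44 against 0.09. In bulk tissue, fewer cells of a type and less RNA per cell cannot be told apart. Markers of other tissues moved with stage: the summed SEEDSTICK homologs, an ovule marker, were 362, 491, 91, 1464 and 2379 at stage 12, against 309, 245, 93, 358 and 175 at stage 6. The 4 ovule markers found of 5 listed summed to 4541 to 9980 at stage 12 and 3681 to 7771 at stage 6, with INNER NO OUTER listed at 0 outside N. plumbaginifolia. SHP1 made up most of these sums, with 5203, 4032, 6651, 3430 and 7487 at stage 12. In N. plumbaginifolia it had 1403 in ovary, below the nectary, so the summed markers say little about ovule content. The 6 leaf mesophyll markers found of 12 listed summed to 14673, 13127, 1693, 7618 and 7377 at stage 12, against 6039, 11746, 2213, 2687 and 2430 at stage 6. The 4 phloem and xylem markers found of 5 listed summed to 976, 2738, 131, 1441 and 1190 at stage 12, against 699, 1275, 165, 393 and 380 at stage 6. The 4 nectary markers found of 6 listed summed to 98602, 36900, 75813, 24411 and 34749 at stage 12, against 46270, 20161, 20983, 12236 and 39404 at stage 6. The leaf and vascular sums were thus higher at stage 12 in all profiles but N. glauca, the nectary sums in all but the joint profile. SUC2 made up most of the vascular sums, with 797, 2439, 115, 1386 and 1106 at stage 12, against 457, 1155, 103, 278 and 256. XCP2 had 90, 193, 1, 43 and 65, against 117, 70, 19, 100 and 101. IRX3 had 81, 74, 15, 4 and 19, against 123, 40, 43, 6 and 23. XCP2 and IRX3 were thus higher at stage 12 in N. rustica alone. Single nectary markers went different ways. SWEET9 had 71234, 17999, 28783, 7619 and 6845 at stage 12, against 12409, 743, 2152, 154 and 593 at stage 6. MYB24 had 8554, 7648, 21696, 6414 and 8585, against 14388, 10424, 8169, 5963 and 12653. CRC had 7833, 6687, 9069, 80 and 4679, against 8790, 6544, 5000, 86 and 9651. CWINV4 changed in the direction of the sum in each profile. Among leaf markers, RBCS had 9164 in N. rustica, against 9923. The part of these markers in the results was not tested. Without the groups in which SEEDSTICK stood at least 5-fold above stage 6, 7 loci rose and 1 fell, and without the nectary groups of wide spread 7 rose and 0 fell. Of all loci, 273 of 16959 rose and 241 fell in the first setting, and 273 of 17012 rose and 282 fell in the second. Leaving out 1 profile at a time left 1 to 10 loci called, with 1 without N. rustica, 4 without N. glauca and 4 without the joint profile. Calls over all loci dropped as well, from 1196 to 237, 280 and 341 in that order. They numbered 780 without N. benthamiana and 967 without N. plumbaginifolia, each with 10 ethylene loci called.

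**Figure D1:**
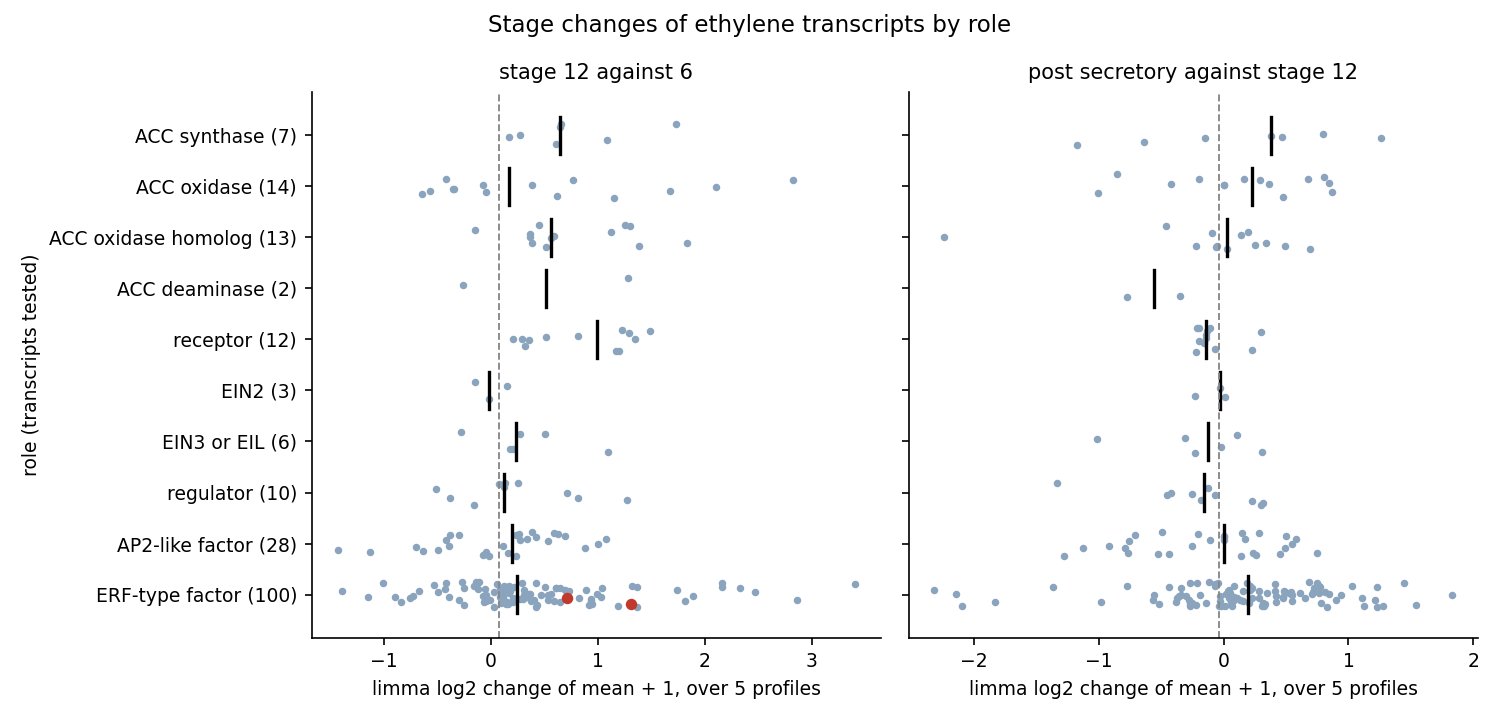
Each point is 1 ethylene transcript, placed by its limma log2 change over the 5 profiles at stage 12 against stage 6 (left) and post secretory against stage 12 (right), in rows by role. Black bars are role medians, the dashed line is the median of all transcripts, and red points passed an adjusted p of 0.05. All 12 receptors lie above 0 on the left, and only 2 ERF-type factors are red.

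The first step, ACC synthase, rested mostly on the ACS6-type locus AT4G11280, which holds 6 of the 7 transcripts. Its sums over stages 6, 9, 12 and post secretory were 64, 178, 275 and 568 in N. benthamiana, 343, 294, 565 and 1839 in N. rustica, and 1229, 1070, 2844 and 4168 in the joint profile. N. plumbaginifolia had 1159, 81, 200 and 348, and N. glauca 165, 133, 632 and 419. The locus was thus higher at stage 12 than at stage 6 in 4 of 5 profiles and lower in N. plumbaginifolia, and it did not pass the test over profiles. All 7 ACC synthase transcripts had estimates above 0 at stage 12 against stage 6, with a median of 0.65, and none passed. The post secretory levels of AJ005002.1, the most read ACC synthase, had very wide spreads, at 1179 ± 1684 in N. rustica and 1947 ± 1475 in the joint profile.

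ACC oxidase, which releases ethylene from ACC, gave the largest stage change among the synthesis genes. The ACO1-type locus AT2G19590 had sums of 798, 629, 1967, 95 and 656 at stage 12, against 752, 51, 24, 40 and 42 at stage 6. It rose by 3.03 on the log2 scale (SE 0.73, limma adjusted p = 0.026, higher in 5 of 5 profiles). N. benthamiana was already high at stage 6 and hardly differed between the stages, and the other 4 profiles carried the change. The locus passed in 4 of 9 other settings. The call was lost without N. rustica, N. glauca, the joint profile, the groups high in SEEDSTICK or those of wide spread, with adjusted p up to 0.13. Its post secretory sums were 1058, 1402, 479, 257 and 1733, higher than at stage 12 except in N. glauca.

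The bulk of ACC oxidase reads lay on another locus, the ethylene-forming enzyme AT1G05010, which passed no stage test. Its sums were 16679, 5291, 6045, 3180 and 4634 at stage 12, against 9587, 5485, 5220, 3578 and 8048 at stage 6. The profiles used different copies of it. XM_016618795.1 had 7056 ± 212 at stage 12 in N. benthamiana and 0 at all stages in N. rustica. XM_016605728.1 had 3689 in N. rustica, 652 in the joint profile and 0 in the other 3. X83229.1 had 5102, 870, 5, 111 and 1489. In N. glauca the post secretory mean of XM_016618795.1 was 11789 with an SD of 14236, so the high post secretory value there rests on an uneven group. The row Z46349.1 is described as ACC deaminase, yet its Arabidopsis match is this same ethylene-forming enzyme. It had 46 ± 7, 313 ± 38, 4058 ± 102 and 1207 ± 150 over the 4 stages in N. benthamiana and was listed at 0 in all other nectaries.

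Transcripts described as ACC oxidase homologs belong to the same oxygenase family, and that name does not establish that they make ethylene. Of 13 tested, 12 had estimates above 0 at stage 12 against stage 6, with a median of 0.56, and none passed. Summed by locus, AT1G06620 rose by 0.80 (SE 0.18, limma adjusted p = 0.022, higher in 4 of 5 profiles), with sums of 1184, 853, 642, 568 and 640 at stage 12, against 490, 414, 348, 306 and 678 at stage 6. The joint profile was the exception. The call was lost without any 1 of the other 4 profiles, at adjusted p of 0.062 to 0.10. Another homolog locus, AT5G59540, differed between profiles and did not pass. Its transcripts found by the rule summed to 116, 589, 1109 and 370 in N. plumbaginifolia and 36, 285, 298 and 6 in N. rustica. The joint profile had 167, 261, 186 and 55, N. glauca had 0, 0, 17 and 14, and N. benthamiana was at 0 throughout.

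The receptors had the same direction. All 12 tested transcripts had estimates above 0 at stage 12 against stage 6, from 0.20 to 1.49 with a median of 0.99, although none passed alone. Summed over the family the receptors had 3513, 5054, 4834, 3188 and 3726 at stage 12, against 1247, 1858, 1830, 2190 and 2072 at stage 6, so every stage 12 value lay above every stage 6 value. Of the 4 receptor loci, 3 rose.

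ERS1, a receptor without the receiver domain of the ETR type, had locus sums of 1250, 3167, 1247, 1734 and 869 at stage 12, against 378, 819, 371, 501 and 759 at stage 6. It rose by 1.48 (SE 0.26, limma adjusted p = 0.0075, higher in 5 of 5 profiles). In 4 profiles the stage 12 sum was well above that of stage 6, and the joint profile differed little. ETR2 had 450, 210, 210, 99 and 632 at stage 12, against 82, 49, 97, 53 and 153 at stage 6, and rose by 1.71 (SE 0.34, limma adjusted p = 0.012, 5 of 5 profiles). ETR1, the receptor in which ethylene insensitivity was first mapped in Arabidopsis, moved less: 466, 916, 864, 749 and 875 at stage 12, against 320, 517, 527, 613 and 715 at stage 6, a rise of 0.53 (SE 0.10, limma adjusted p = 0.010, 5 of 5 profiles). Over 9 other settings ERS1 passed in 8, ETR1 in 7 and ETR2 in 7. Without N. rustica the 3 calls were lost, with adjusted p of 0.052 for ERS1, 0.058 for ETR1 and 0.052 for ETR2, and ETR1 was also lost without N. glauca and ETR2 without the joint profile.

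The fourth receptor locus, EIN4, did not pass. Its sums, which include 3 transcripts described as EIN4-like, were 3255, 1940, 3188, 1258 and 3455 at stage 12, against 2329, 1052, 1212, 1633 and 2095 at stage 6, so N. plumbaginifolia was the 1 profile in which it was lower. Among the most read receptor transcripts, ethylene receptor 2-like XM_016612296.1 had 1043, 265, 2096, 196 and 772 at stage 12, against 145, 226, 658, 529 and 133 at stage 6. This transcript matches the EIN4 locus and was likewise lower in N. plumbaginifolia alone.

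**Figure D2:**
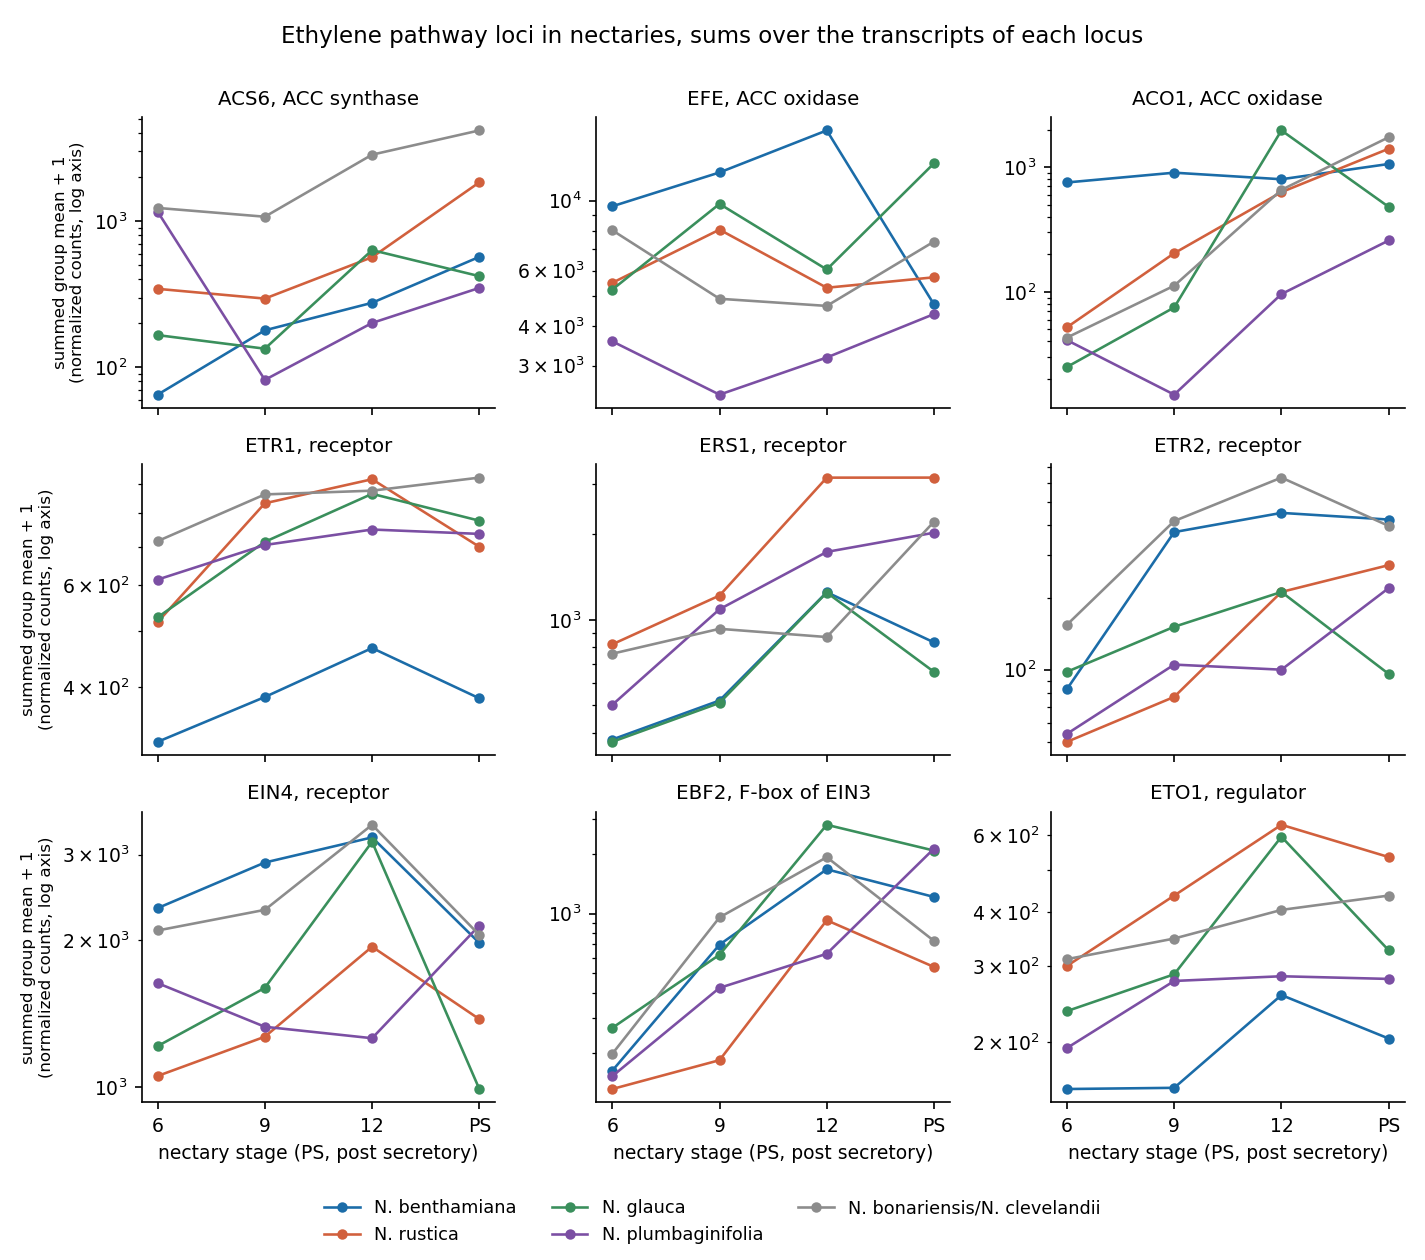
Sums of the authors' group means plus 1 (normalized counts, log axis) over the transcripts of 9 loci, against nectary stage, with 1 line per profile. ERS1, ETR2 and EBF2 were higher at stage 12 than at stage 6 in all 5 profiles, while the ethylene-forming enzyme and ACS6 showed no order common to all profiles.

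Below the receptors, EBF1, EBF2 and CTR1, which restrain the pathway, rose at stage 12 against stage 6. The list of other pathway genes was matched by Arabidopsis locus to 46 transcripts over 11 of 15 loci, and 3 of them rose and 0 fell at stage 12 against stage 6, where 0.478% of all transcripts rose and 0.36% fell. EBF2, which marks EIN3 for removal and is itself a target of EIN3 in Arabidopsis, had sums of 1670, 925, 2798, 627 and 1922 at stage 12, against 161, 130, 265, 151 and 196 at stage 6. It rose by 2.98 (SE 0.36, limma adjusted p = 0.0018, 5 of 5 profiles), and it passed in all 9 other settings run on locus sums, with estimates of 2.83 to 3.22. The groups did not overlap. EBF1 rose by 0.87 (SE 0.23, limma adjusted p = 0.038) and passed in 3 of those settings, with adjusted p up to 0.16 in the others, which left out each profile but N. plumbaginifolia, the groups high in SEEDSTICK or those of wide spread. The kinase CTR1 had 1799, 982, 1683, 885 and 943 at stage 12, against 1020, 632, 962, 776 and 834 at stage 6, a rise of 0.53 (SE 0.11, limma adjusted p = 0.014). CTR1 passed in 4 and was lost without N. benthamiana, N. rustica, N. glauca, the groups high in SEEDSTICK or those of wide spread, with adjusted p up to 0.088.

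ETO1, which in Arabidopsis brings ACC synthase to degradation, also rose. Its locus had 256, 634, 595, 283 and 403 at stage 12, against 155, 299, 235, 193 and 310 at stage 6, a change of 0.81 (SE 0.15, limma adjusted p = 0.0080, 5 of 5 profiles). It passed in 8 of 9 other settings and was lost without N. rustica, at an adjusted p of 0.058. Its transcript XM_016656335.1 had an adjusted p of 0.052 by itself. Enhanced ethylene response 5-like XM_016588629.1 had 682, 155, 289, 273 and 347 at stage 12, against 600, 142, 196, 231 and 307 at stage 6, higher in 5 of 5 profiles and not past the threshold.

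EIN2, the membrane protein that relays the signal, passed no stage test. Its 3 transcripts summed to 1511, 1022, 1769, 1157 and 1335 at stage 12, against 1208, 767, 1341, 1088 and 1884 at stage 6, and their estimates lay between -0.14 and 0.15. EIN3-like transcripts summed to 2101, 2762, 4534, 3426 and 2542 at stage 12, against 1981, 2478, 2197, 2195 and 2416 at stage 6. The highest estimate among them was 1.09 for XM_016639857.1 (SE 0.32, limma adjusted p = 0.12, higher in 5 of 5 profiles), with 760, 1412, 2986, 1965 and 634 at stage 12, against 453, 687, 790, 1188 and 308 at stage 6. XM_016653788.1, another EIN3-like transcript, had 633, 1169, 1369, 0 and 1671 at stage 12, against 1123, 1659, 1262, 0 and 1907 at stage 6. The 2 transcripts thus pointed in different directions, and neither passed.

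AP2-like factors are relatives of the floral regulators APETALA2 and AINTEGUMENTA that carry "ethylene-responsive" in their descriptions. Of 28 tested, 16 had estimates above 0 at stage 12 against stage 6 and 12 below, none passed, and the median was 0.20. The 2 most read were At2g41710-like XM_016622008.1, with 328, 654, 292, 204 and 130 at stage 12, against 302, 1276, 568, 389 and 84 at stage 6, and RAP2-7-like XM_016644149.1, with 189, 29, 178, 50 and 387, against 155, 77, 281, 387 and 767. RAP2-7-like XM_016644149.1 had the third lowest p among the transcripts with estimates below 0, at -1.13 (SE 0.48, limma adjusted p = 0.25, lower in 4 of 5 profiles).

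ERF-type factors made up 102 of the 198 transcripts and held the widest range of changes. Of 100 tested, 2 rose and 0 fell at stage 12 against stage 6, with estimates from -1.39 to 3.41 and a median of 0.24. ERF118-like XM_016624038.1 had 221 ± 12, 116 ± 6, 302 ± 114, 432 ± 51 and 84 ± 17 at stage 12, against 151 ± 14, 71 ± 6, 123 ± 13, 103 ± 7 and 21 ± 1 at stage 6. It rose by 1.31 (SE 0.26, limma adjusted p = 0.037, 5 of 5 profiles). ERF 3-like XM_016645863.1, of a class that represses transcription in tobacco, had 337 ± 30, 204 ± 12, 347 ± 21, 320 ± 20 and 246 ± 17, against 214 ± 8, 143 ± 11, 154 ± 12, 188 ± 20 and 179 ± 46. It rose by 0.71 (SE 0.14, limma adjusted p = 0.034, 5 of 5 profiles). Both lost the call without any 1 profile and in the settings without groups high in SEEDSTICK or of wide spread, where their adjusted p lay between 0.057 and 0.18.

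By locus, 4 of 35 ERF-type loci rose at stage 12 against stage 6 and 1 fell. ABR1, named for repression of abscisic acid responses, had sums of 3091, 2019, 2157, 885 and 3962 at stage 12, against 597, 372, 108, 46 and 363 at stage 6. It rose by 3.36 (SE 0.78, limma adjusted p = 0.023, 5 of 5 profiles), and no stage 12 sum overlapped the stage 6 range. It passed in 5 of 9 other settings and was lost without N. rustica, N. glauca, the joint profile or the groups of wide spread, with adjusted p up to 0.10. The TINY2-type locus AT5G11590 rose by 2.15 (SE 0.53, adjusted p = 0.029 by limma), with 124, 243, 48, 43 and 188 at stage 12, against 24, 18, 21, 20 and 32 at stage 6. It passed in 4 of 9 other settings, and leaving out any 1 profile but N. plumbaginifolia, or the groups high in SEEDSTICK, ended the call, with adjusted p up to 0.11. AT1G64380 rose by 2.30 (SE 0.60, adjusted p = 0.036 by limma). It passed in 3 of 9 and was lost without any 1 profile but N. benthamiana, and without the groups high in SEEDSTICK or of wide spread, with adjusted p up to 0.13. The other locus that rose, AT2G47520, holds only the ERF118-like transcript above and passed in 5 of 9.

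The locus that fell, AT1G19210 (ERF017 type), had 1296, 879, 530, 2746 and 4808 at stage 12, against 3272, 2479, 2770, 5890 and 4696 at stage 6, a change of -1.26 (SE 0.35, adjusted p = 0.043 by limma, lower in 4 of 5 profiles). It passed in 3 of 9 other settings and was lost without any 1 profile and without the groups of wide spread, with adjusted p up to 0.17. At stage 9 it had 338, 1038, 843, 948 and 1532, and the change from stage 6 was -2.10 (SE 0.35, lower in 5 of 5 profiles) with an adjusted p of 0.12. Its most read transcript was ERF017-like XM_016645487.1, with 217 ± 10, 498 ± 48, 505 ± 33, 639 ± 60 and 429 ± 51 at stage 9, against 1443 ± 42, 1198 ± 26, 1705 ± 32, 3222 ± 87 and 1733 ± 46 at stage 6. No stage 9 value of this transcript came near a stage 6 value, yet it did not pass after adjustment over all transcripts.

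The summed level of the ERF-type factors was lowest at stage 9, which single members did not share evenly. Over stages 6, 9, 12 and post secretory the sums were 28276, 22325, 28560 and 31722 in N. benthamiana and 23287, 22426, 27541 and 44581 in N. rustica. N. glauca had 25998, 20427, 29906 and 37612. N. plumbaginifolia had 43239, 18143, 40771 and 45126, and the joint profile 36033, 31770, 53246 and 56071. Stage 9 was the lowest and the post secretory stage the highest in all 5 profiles. ERF9-type AT5G44210 had this low point too, with 2841, 2053, 2503, 3481 and 5777 at stage 9, against 5775, 2872, 4629, 10389 and 7736 at stage 6. Counted singly, 48 of 100 ERF-type transcripts had estimates above 0 at stage 9 against stage 6 and 52 below, with a median of -0.01, and by locus 15 of 35 were above 0 and 20 below. These sums were not tested as a group.

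Neither neighbouring step passed the test for any transcript. At stage 9 against stage 6, 0 of 195 ethylene transcripts were called, as 0.0% of all transcripts were, with 13 higher and 17 lower at an unadjusted p under 0.05, or 15.4% against 8.16% of all transcripts. At stage 12 against stage 9, 0 of 195 were called, again with 0.0% of all transcripts, and 19 were higher and 1 lower at an unadjusted p under 0.05, or 10.3% against 4.85% of all transcripts. The median change was 0.07 at stage 9 against stage 6 and 0.28 at stage 12 against stage 9, against 0.03 and 0.05 over all transcripts. By locus 0 of 63 were called at either step, where 0.0% of all loci were called for stage 9 against stage 6 and 0.0117% for stage 12 against stage 9. The lowest p among the higher transcripts of stage 12 against stage 9 belonged to ERF 9-like XM_016580127.1, with 3462, 1273, 2834, 3165 and 3540 at stage 12, against 1630, 556, 1582, 1697 and 1666 at stage 9. That is a change of 1.02 (SE 0.23, limma adjusted p = 0.90) with the same direction in 5 of 5 profiles. ERF 12-like XM_016601108.1 had 138, 88, 13, 11 and 21 at stage 12, against 3, 4, 1, 5 and 7 at stage 9.

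**Figure D3:**
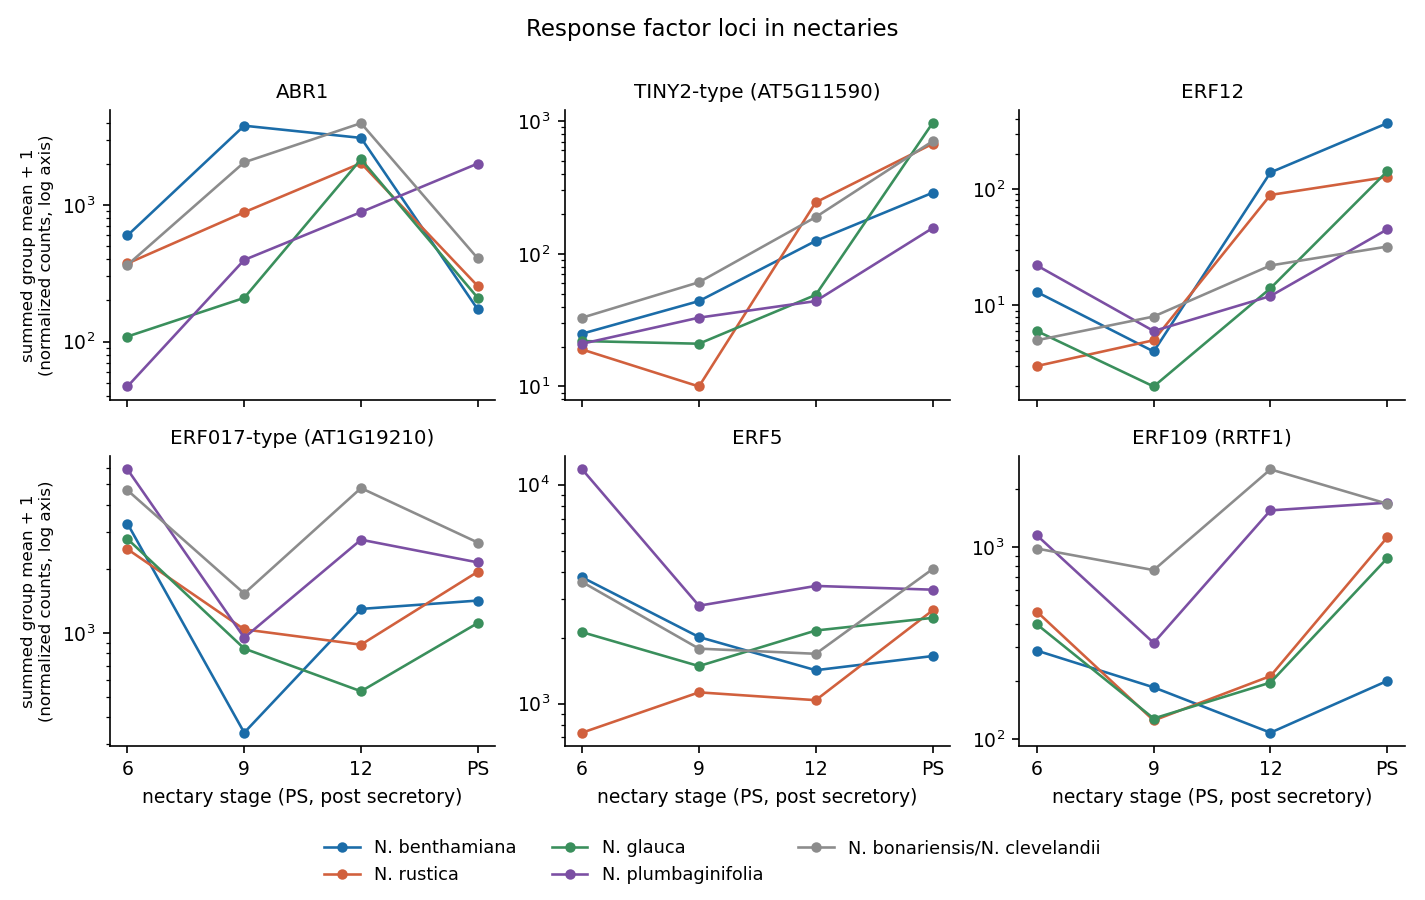
Sums of the authors' group means plus 1 (normalized counts, log axis) for 6 response factor loci against nectary stage, with 1 line per profile. ABR1 was lower after secretion in 4 profiles and higher in N. plumbaginifolia, the TINY2-type locus was highest after secretion in all 5, and every profile had less of the ERF017-type locus at stage 9 than at stage 6.

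The second comparison sets post secretory nectaries against those of open flowers. No ethylene transcript passed: 0 of 195 were called by limma, where 0.786% of all transcripts were (0.232% higher and 0.554% lower), and 11 were higher and 13 lower at an unadjusted p under 0.05. That is 12.3% of the ethylene transcripts, below the 16.3% of all transcripts at that threshold. By locus 2 of 63 rose and 1 fell, where 7.0% of all loci were called, 2.98% higher and 4.02% lower. The TINY2-type locus AT5G11590 rose, with 287, 672, 963, 155 and 703 in post secretory nectaries, against 124, 243, 48, 43 and 188 at stage 12, a change of 2.14 (SE 0.53, adjusted p = 0.030 by limma, 5 of 5 profiles). ERF6-type AT4G17490 rose by 1.71 (SE 0.44, adjusted p = 0.034 by limma, 4 of 5 profiles). Its 1 transcript found by the rule had 10, 1305, 0, 83 and 648, against 7, 247, 0, 94 and 353 at stage 12. The locus sum thus also counts transcripts outside the rule, and that transcript was near or at 0 in N. benthamiana and N. glauca. D-cysteine desulfhydrase AT1G48420, described as an ACC deaminase as well, fell by 0.78 on the log2 scale (SE 0.21, adjusted p = 0.041 by limma, 5 of 5 profiles), with 774, 414, 532, 194 and 505, against 1178, 760, 1417, 204 and 972. The TINY2-type call held in 4 of 9 other settings, that of ERF6 type in 4 and that of AT1G48420 in 3, with adjusted p up to 0.39, 0.40 and 0.44 in that order. Without the groups of wide spread, 0 of 62 ethylene loci were called, where only 6 of all 17012 loci were. Leaving out 1 profile left 0 without N. benthamiana, N. glauca or the joint profile, 1 without N. rustica and 6 without N. plumbaginifolia. Over all loci the calls went from 1197 to 172, 134, 219, 162 and 1793 in that order.

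Tissue markers moved strongly at this step. The 4 nectary markers found summed to 522, 712, 115, 7268 and 821 in post secretory nectaries, against 98602, 36900, 75813, 24411 and 34749 at stage 12. The 6 leaf mesophyll markers found summed to 26335, 43514, 32394, 16467 and 40468, against 14673, 13127, 1693, 7618 and 7377. Of these, RBCS had 7321, 8559, 7687, 5197 and 7774, against 9937, 9164, 1486, 2321 and 2643. The 4 phloem and xylem markers found summed to 2062, 3839, 2947, 2556 and 2413, against 976, 2738, 131, 1441 and 1190. Single markers differed. SUC2 had 880, 1663, 1454, 2502 and 1427, against 797, 2439, 115, 1386 and 1106, so it was lower in N. rustica. XCP2 had 483, 1150, 779, 42 and 804, against 90, 193, 1, 43 and 65. IRX3 had 618, 793, 714, 5 and 182, against 81, 74, 15, 4 and 19. Both hardly differed in N. plumbaginifolia. The 4 ovule markers found summed to 3348, 1641, 3397, 3884 and 2876, against 5576, 4541, 6742, 5083 and 9980. SEEDSTICK alone had 980, 310, 621, 1980 and 386, against 362, 491, 91, 1464 and 2379. The part of these markers in the results for this step was not tested.

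N. plumbaginifolia, with the highest post secretory sum of nectary markers, went against the other profiles at several loci. ABR1 sums were 171, 254, 208, 2007 and 405 in post secretory nectaries, against 3091, 2019, 2157, 885 and 3962 at stage 12. EBF2 sums were 1212, 538, 2075, 2123 and 728, against 1670, 925, 2798, 627 and 1922. N. plumbaginifolia was the 1 profile with more of both after secretion. Whether it differs from the other profiles was not tested. ERF 4-like XM_016598173.1 was higher in 5 of 5 profiles, with 3458 ± 230, 2351 ± 259, 2455 ± 686, 869 ± 30 and 1445 ± 621, against 2083 ± 39, 718 ± 55, 716 ± 164, 593 ± 47 and 550 ± 80. Its change of 1.23 (SE 0.29) had a limma adjusted p of 0.064, and the call was made without N. plumbaginifolia, at 1.40 and an adjusted p of 0.013. Without the groups of wide spread its change was 0.66, with an adjusted p of 0.56.

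Within 1 profile, the authors' means and SDs allow an approximate limma test between 2 groups, read as 3 libraries each and called at an adjusted p under 0.05 and at least 2-fold. At stage 12 against stage 6, 25 of 115 ethylene transcripts rose and 18 fell in N. benthamiana, where 14.6% of all transcripts were called (8.9% higher and 5.69% lower). In N. rustica 32 of 114 rose and 12 fell, with 22.5% of all called (13.5% higher and 8.91% lower). In N. glauca 34 of 97 rose and 13 fell, with 32.1% of all called (18.9% higher and 13.2% lower). The pattern differed most between directions in the joint profile, where 60 of 148 rose and 9 fell, with 19.8% of all called (13.8% higher and 6.04% lower). For N. plumbaginifolia the counts were 33 of 117 higher and 19 lower, with 17.1% of all called (8.82% higher and 8.27% lower). The balance over all transcripts depended on the scaling in 2 profiles, while more ethylene transcripts rose than fell under both. After rescaling by the median of ratios, 26 ethylene transcripts rose and 17 fell in N. rustica, with 10.6% of all transcripts higher and 11.7% lower. In N. glauca 27 rose and 16 fell, with 13.9% of all higher and 17.4% lower. The share called among ethylene transcripts, 37.4% to 48.5%, was above that of all transcripts in each profile.

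Receptors were among those that rose in every profile, with 4 of 7 in N. benthamiana, 6 of 8 in N. rustica, 5 of 7 in N. glauca, 3 of 9 in N. plumbaginifolia and 4 of 12 in the joint profile. The 1 receptor transcript that fell was in N. plumbaginifolia. The joint profile stood out for its ERF-type factors, 37 of 77 of which rose and 3 fell, with a median of 0.95, against 12 that rose and 15 that fell of 60 in N. benthamiana. The difference between these profiles was not tested.

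For post secretory nectaries against stage 12, more ethylene transcripts rose than fell in 3 profiles, and the balance in the other 2 depended on the scaling. In N. rustica 39 of 122 ethylene transcripts rose and 8 fell, where 21.4% of all were called (12.2% higher and 9.28% lower), and 32 of the 39 were ERF-type factors. In N. benthamiana 23 of 114 rose and 11 fell, with 23.4% of all called (13.4% higher and 9.98% lower). For N. plumbaginifolia 21 of 116 rose and 4 fell, with 8.04% of all called (5.15% higher and 2.9% lower). In N. glauca 21 of 108 rose and 25 fell, with 30.7% of all called (15.3% higher and 15.4% lower). The joint profile had 16 of 151 higher and 19 lower, with 13.6% of all called (7.07% higher and 6.51% lower). After rescaling, N. glauca had 25 higher and 22 lower, with 17.2% of all transcripts higher and 12.5% lower. The joint profile then had 20 higher and 18 lower, with 2272 of all 29152 transcripts higher and 1659 lower. With a pseudocount of 10 N. glauca had 23 of each, with 3393 of all 23008 transcripts higher and 3104 lower. The joint profile had 13 higher and 19 lower at that pseudocount, with 1888 of all 29206 higher and 1840 lower. By the authors' calls the joint profile had 9 higher and 21 lower, with 1375 of all 29206 transcripts higher and 2140 lower. N. glauca had 22 higher and 24 lower by those calls, with 3572 of all 23008 higher and 4039 lower. Differences between the profiles were not tested. ERF109-type AT4G34410 shows the spread: its sums were 200, 1123, 874, 1703 and 1682 in post secretory nectaries, against 107, 212, 196, 1553 and 2541 at stage 12.

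The third comparison sets the stage 12 nectary of N. plumbaginifolia against leaf, ovary and sepal of the same species. Before it, the copies have to be looked at, because the tissues did not list the same ones. EIN2-like XM_016624657.1 (variant X1) had 1157 ± 66 in the stage 12 nectary, against 930 ± 128 in leaf, 0 in ovary and 4 ± 2 in sepal. XM_016624658.1, variant X2 of the same gene, had 0 in the nectary, against 15 ± 10 in leaf, 1137 ± 44 in ovary and 1283 ± 20 in sepal. The sum over all EIN2 transcripts was 1157 in the nectary, against 945, 1137 and 1287, and it passed against none of the 3 tissues at 2-fold. The ERS1-type receptor behaved alike, with XM_016617150.1 (variant X1) at 1659 ± 150 in the nectary and at 0 in leaf, and variant X2, XM_016617151.1, at 0 in the nectary and at 641 ± 9 in sepal.

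**Figure D4:**
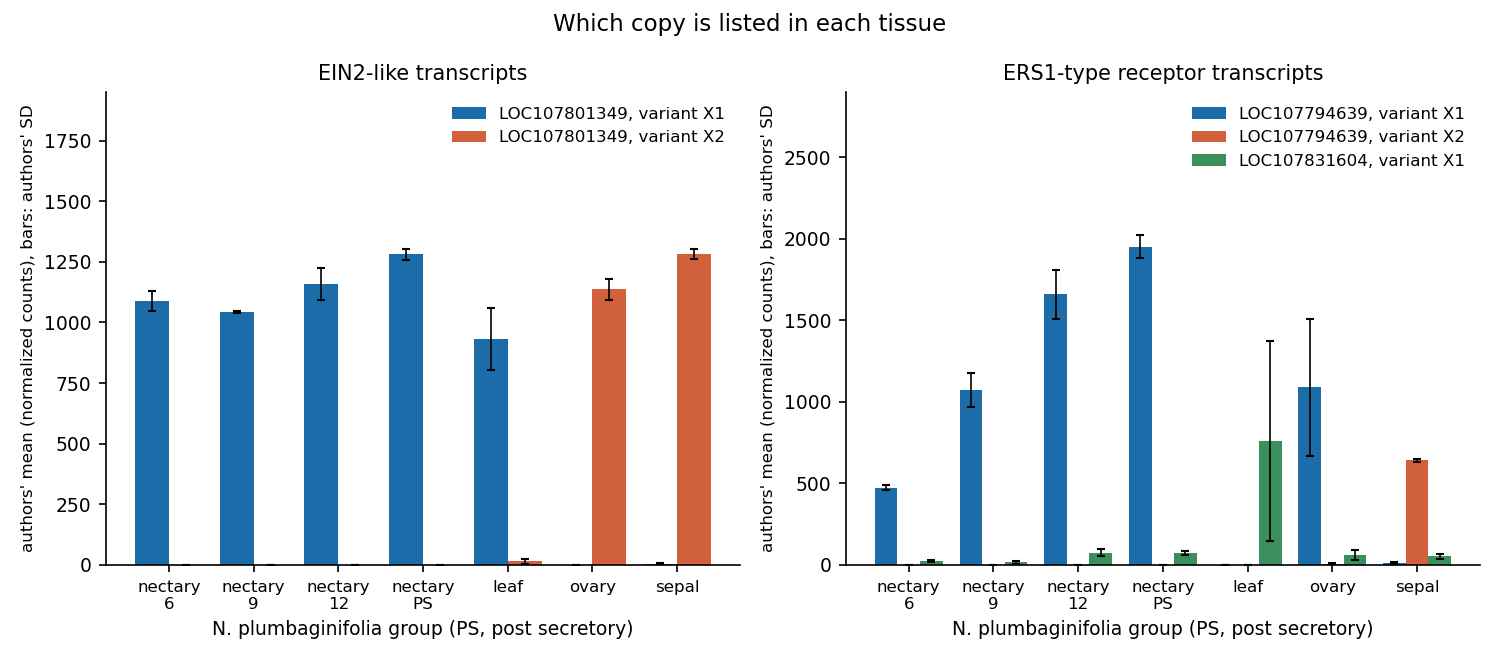
Authors' means with authors' SDs (bars and whiskers, normalized counts) of EIN2-like and ERS1-type transcripts in the 4 nectary stages and the leaf, ovary and sepal of N. plumbaginifolia. The nectary stages list the same variant throughout, while ovary and sepal list the other EIN2 variant and leaf and sepal list other ERS1 copies.

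The extent of this was counted over loci with at least 2 transcripts and a sum of 100 or more in both groups. Among ethylene loci, the transcript with the highest mean differed between stage 12 nectary and leaf in 14 of 30 loci, ovary in 13 of 33 and sepal in 15 of 34. Between stage 12 and the other nectary stages it differed in 2 to 6 of 34 to 39. Over all loci the shares were 27.9% for leaf, 28.7% for ovary and 32.1% for sepal, against 4.35% to 6.07% between nectary stages. Calls on single transcripts between tissues therefore include such changes of copy, and the sums by locus were read first. Whether reads of the tissues and of the nectaries were assigned to transcripts in the same way is not stated and was not tested. Zeros and locus sums between tissues carry that limit too. The SD of a sum was taken as the sum of the SDs, the largest it can be. These tests read each tissue as 3 libraries, as the labels have it, although the protocol's count differs.

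By locus, 20 ethylene loci of 57 were higher in the stage 12 nectary than in leaf and 7 lower, where 34.9% of all loci were called (13.3% higher and 21.6% lower). Against ovary 18 of 59 were higher and 10 lower, with 32.8% of all called (11.2% higher and 21.6% lower), and against sepal 22 of 55 were higher and 7 lower, with 43.4% of all called (15.6% higher and 27.8% lower). ERF-type loci made up most of the higher ones: 17 of 31 against leaf with 2 lower, 15 of 33 against ovary with 5 lower, and 16 of 30 against sepal with 1 lower. Their summed level was 40771 in the stage 12 nectary, against 13315 in leaf, 18190 in ovary and 18069 in sepal. At stage 9 the nectary sum was 18143, close to those of ovary and sepal, so the nectary was not above these tissues at every stage. These sums were not tested.

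Among the loci with the largest differences was ERF109-type AT4G34410, known in Arabidopsis for its response to redox signals. It had a sum of 1553 in the stage 12 nectary, against 0 in leaf, 56 in ovary and 78 in sepal. The difference from sepal was 4.30 (SE 0.15) on the log2 scale and from ovary 4.77 (SE 0.39). ERF025-type AT5G52020 had 300 in the nectary, against 0, 0 and 1. AT2G33710 had 1195, against 7, 23 and 74, and the ERF017-type locus had 2746, against 65, 319 and 290. All 4 loci passed the test against each of the 3 tissues. They remained above the tissues at stage 9, their lowest nectary stage or close to it, with 316, 92, 228 and 948.

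ABR1 had 885 in the stage 12 nectary, against 6 in leaf, 173 in ovary and 140 in sepal, and passed against all 3. The ACO1-type oxidase had 95, against 0, 19 and 0, and also passed against all 3. Neither locus stayed above the tissues at every nectary stage. ABR1 had 46 at stage 6, below ovary and sepal, and the ACO1-type oxidase had 14 at stage 9, below ovary. The ACC oxidase homolog locus AT2G30840 had 10 in the nectary, against 129, 67 and 522, and was lower than in all 3. Another, AT1G04350, had 170, against 1094, 273 and 756, and was lower by the test than in leaf and sepal. AT5G59540, also a homolog locus, went the other way, with 1109 in the nectary, against 312, 447 and 376, and was higher than in all 3. The ERS1 locus had 1734, against 760, 1160 and 702, and of the 3 tests only that against sepal passed, at 1.30 on the log2 scale (SE 0.08). ETR2 had 99 in the nectary, against 28 in leaf, 287 in ovary and 135 in sepal, and was lower than in ovary by the test, at -1.53 (SE 0.25). ETR1 stood at 749, against 593, 827 and 632.

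**Figure D5:**
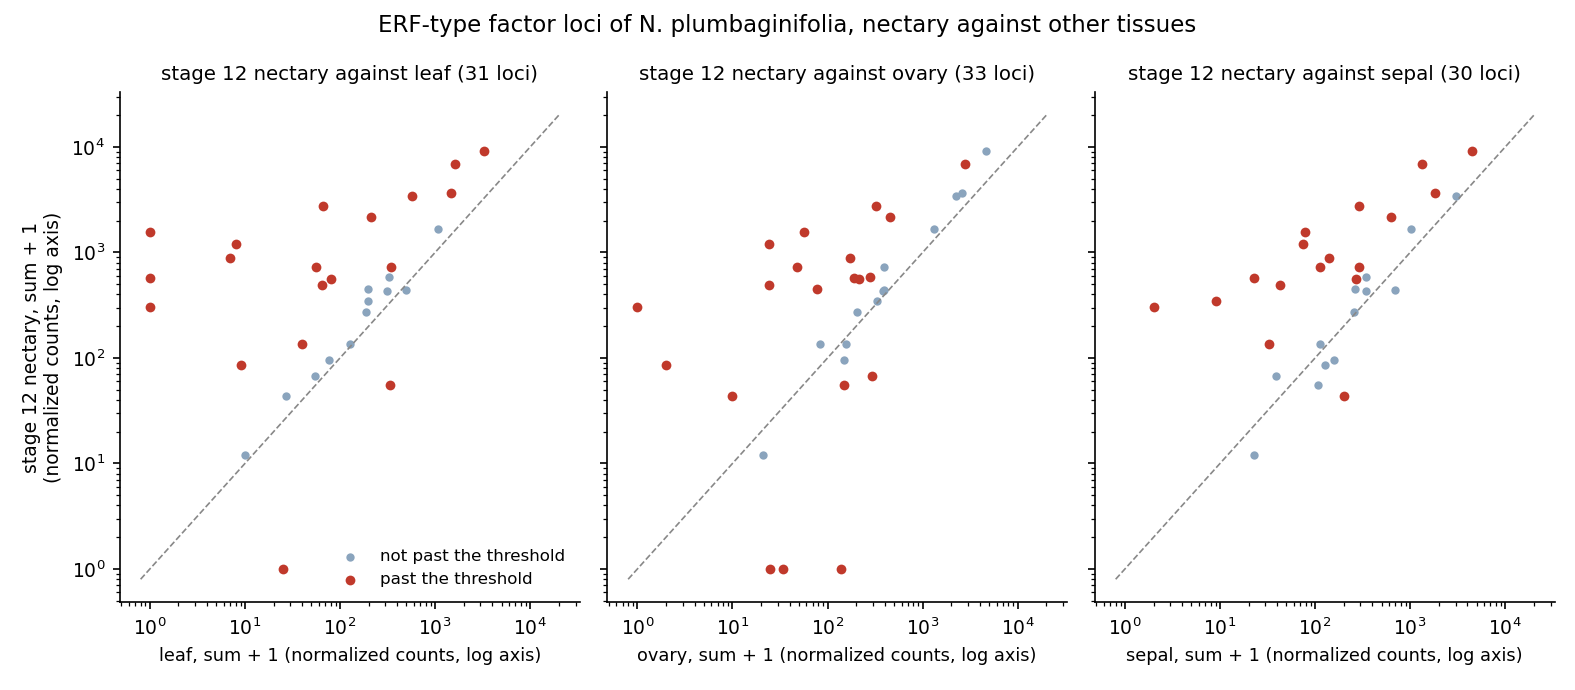
Each point is 1 ERF-type locus of N. plumbaginifolia, with its sum plus 1 in the stage 12 nectary on the vertical axis and in leaf, ovary or sepal on the horizontal axis (normalized counts, log axes). Red points passed an adjusted p of 0.05 at 2-fold or more, and the dashed line marks equal sums. Of the red points, 17 lie above the line against leaf, 15 against ovary and 16 against sepal.

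On single transcripts, 55 of 123 ethylene transcripts were higher in the stage 12 nectary than in leaf and 21 lower, where 53.7% of all were called (24.6% higher and 29.1% lower). Against ovary 55 of 128 were higher and 26 lower, with 54.3% of all called (23.5% higher and 30.8% lower), and against sepal 59 of 128 were higher and 29 lower, with 61.5% of all called (26.7% higher and 34.8% lower). The 3 largest on each side included the EIN2 and ERS1 copies above, ERF109-like XM_016592907.1 with 530 ± 73 in the nectary and 0 in the other tissues, and ERF109-like XM_016584324.1 with 522 ± 37, against 0 in leaf and ovary and 5 ± 2 in sepal. ERF 5-like XM_016629281.1 had 513 in the nectary, against 197 in leaf and 0 in ovary and sepal. On the lower side, ERF022-like XM_016624336.1 had 0 in the nectary and 136 in ovary, and RAP2-2-like XM_016581700.1 had 0 in the nectary and 500 in leaf.

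A transcript counted as nectary-enriched when its lowest nectary stage mean, plus 1, was 4 or more times its highest mean, plus 1, in the other 3 tissues. This held for 11 of 198 ethylene transcripts, or 5.56%, where 4.59% of all 38230 transcripts were called, a share close to the background. Of the 11, 9 are ERF-type factors, 1 is a receptor and 1 an ACC oxidase. ERF109-like XM_016592907.1 had a lowest nectary mean of 143 and was listed at 0 in the other tissues, ERF025-like XM_016616808.1 had 60 and ERF027-like XM_016578820.1 had 48, both listed at 0 elsewhere. Receptor-like XM_016622630.1 had 37 and was also listed at 0, as were ERF109-like XM_016590538.1 at 30, TINY-like XM_016585423.1 at 20 and ABR1-like XM_016656232.1 at 14. ERF109-like XM_016584324.1 had 87, against a highest value of 5. By locus the count was 2 of 64, ERF025-type AT5G52020 and ERF109-type AT4G34410, where 1.43% of all loci were called. AT4G34410 stood only just past the rule, at 4.01-fold. The TINY-like, ABR1-like and receptor-like transcripts thus met the rule as copies and not as loci.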

How the data were processed

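The deposited table holds the authors' means and SDs of normalized counts per group, entered here as a score because the authors wrote them as whole numbers, and the authors' yes or no calls, whose threshold is not stated. DESeq is named in the submitters' processing notes, with no version. For aligner and build the sources used here give no name, and the labels' protocols give TruSeq RNA v2 libraries sequenced in 50-base paired reads. Values per library are not in the columns used, so the planned fits took group means.

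Stage effects were fitted with limma 3.58.1 (R 4.3.3, data.table version 1.17.8) on log2(mean + 1), profile as block, trended moderation, 12 residual degrees of freedom and Benjamini-Hochberg adjustment over all 36627 transcripts with a mean of 10 or more. Here the profiles, not libraries, are the replicates. Differences between 2 groups used the deposited means and SDs, carried to the log2 scale by the delta method with 4 degrees of freedom and moderated by limma. That test is approximate, and it takes 3 libraries a group as the labels list them. Both were run on simulated data with independent noise, which cannot show how they behave where gene copies or tissue makeup shift together. Tables and figures were made with Python 3.11.15, pandas, numpy and matplotlib.

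Members, roles, lists and tests were chosen with earlier results of these data known. Named transcripts are the most read of each role (not corrected for length), the largest changes past the threshold or, where fewer passed, the 3 lowest p in each direction. Loci are named where their sums passed, and others named with them were chosen after their values were seen. The sums follow the Arabidopsis match named for each transcript, and copies cannot be told apart from variants where counting split them. Alternatives were pseudocount, filter, scaling, both copies of the repeated profile, locus sums, the authors' calls and leaving out profiles or groups. A locus counts as an ethylene locus when most or an even share of its transcripts match the rule. No reference sequences were at hand.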

Additional observations from a re-analysis of the deposited data

How the results depend on the processing

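No paired analysis was possible because the columns carry only group means, with no replicate numbers. None of the transcripts named for a rise or fall between stages reversed under the alternatives run on them. Transcripts named for other reasons were not put through alternatives. For ethylene transcripts called at stage 12 against 6 (2), the counts were 3 with a pseudocount of 10, 2 with no filter, after rescaling by the median of ratios or without the trend, 4 with a filter at a mean of 50 (2.94%, against 1.56% of all transcripts), 18 with both copies of the repeated profile (9.33%, against 6.22%), 11 loci by locus sums, 0 without groups high in SEEDSTICK or of wide spread (both chosen after seeing the data), and 0 to 1 leaving out 1 profile. Over all transcripts the calls at this step fell from 307 to 7 without groups high in SEEDSTICK and to 72 without those of wide spread. Leaving out 1 profile gave 4 to 114 of all transcripts. Entering both copies repeats identical values, and sums test fewer features. Both copies gave 2 at stage 9 against 6 (1.04%, against 0.304%). For post secretory against stage 12 (0), the filter at 50 gave 1 (0.735%, against 1.52%), both copies 6 (3.11%, against 5.38%), locus sums 3 (4.76%, against 7.0%), and leaving out 1 profile 0 to 3. Over all transcripts, leaving out 1 profile gave 2 to 724 calls for post secretory against stage 12, where the main fit gave 288. Stage 12 against 9 stayed at 0 ethylene transcripts throughout. The locus count at stage 12 against 6 (11) was 7 without groups of wide spread and 1 to 10 leaving out 1 profile, and that of post secretory against stage 12 (3) was 0 and 0 to 6. Over all loci the first count (1196) was 555 and 237 to 967, and the second (1197) was 6 and 134 to 1793. Removing groups high in summed ovule markers was not run, since no group reached 5-fold in that sum, which was mostly SHP1 at stages 6 and 12.

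Within profiles, locus sums with added SDs (chosen after seeing the data) gave 18, 20, 22, 21 and 26 at stage 12 against 6 and 12, 22, 21, 10 and 12 after secretion, in the profile order used above, and 27, 28 and 29 against leaf, ovary and sepal. The shares of ethylene loci called at stage 12 against 6 were 31.0%, 35.1%, 42.3%, 38.9% and 45.6%, against 13.4%, 21.0%, 28.7%, 15.8% and 19.3% of all loci. After secretion they were 21.1%, 37.9%, 36.8%, 18.5% and 21.1%, against 21.4%, 20.4%, 28.4%, 7.13% and 13%, so N. benthamiana was at the background. By the authors' deposited table the post secretory counts were 53 in N. benthamiana, 30 in N. rustica and 43 in N. plumbaginifolia, against 34, 47 and 25 here. In the authors' deposited table these were 46.5%, 24.6% and 37.1% of ethylene transcripts, against 43.1%, 20.1% and 20.3% of all, so N. benthamiana was again near it, with 28 higher and 25 lower. Nectary-enriched transcripts numbered 6 of 198 with a pseudocount of 10, where those of all 38230 went from 1754 to 1006. As loci they numbered 2 of 64, where 252 of all 17601 met the rule. Group means without library values limit precision, and depth is unknown.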

Other observations

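S-adenosylmethionine synthetase, which makes the precursor of ACC, was highest after secretion in 3 profiles. Its transcripts on the list summed to 11312, 31066, 25614, 23758 and 35708 in post secretory nectaries, against 8042, 14072, 9383, 19049 and 19372 at stage 12, higher in 5 of 5 profiles. The locus AT1G02500 changed by 0.99 (SE 0.29) with a limma adjusted p of 0.057, and none of the synthetase loci passed.

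ERF12-type AT1G28360 had 12, 2, 5, 21 and 4 at stage 6, 3, 4, 1, 5 and 7 at stage 9, 138, 88, 13, 11 and 21 at stage 12, and 368, 126, 141, 44 and 31 in post secretory nectaries. It was higher at each later step in N. rustica and the joint profile and did not pass the test over profiles.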
